A study of Mus musculus with 11 samples.

Results

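The genes described here are 10 transcriptional targets of p53 known from textbooks, listed by name: Zmat3, Ccng1, Eda2r, Phlda3, Aen, Sesn1, Trp53inp1, Ei24, Plk2 and Gdf15. Inhibitors of cyclin-dependent kinases and genes of the BCL2 family were left out of the choice. They are 10 of the 35056 genes over which transcript values were summed, and all 10 were among the 14106 genes with enough reads to be tested. The question asked of them was what their RNA did after ionizing radiation in a cell line that is mutant for p53.

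p53 is a transcription factor that is kept at a low level by the ubiquitin ligase Mdm2 and accumulates after DNA damage. It binds DNA at response elements made of a pair of decamer half-sites, and its targets act in cell cycle arrest, apoptosis, DNA repair, metabolism and the control of p53 itself. Loss of the Rb and p53 tumour suppressors is the common genetic feature of small cell lung cancer (SCLC) and of the mouse models of it.

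The study examined radiation of SCLC, and its bulk RNA sequencing used KP1, a mouse SCLC line of neuroendocrine type that is mutant for Rb and p53 by the study's methods, which do not describe the alleles. Untreated KP1 cells made up 2 libraries, replicates 2 and 3, and KP1 cells given 5 Gy of ionizing radiation made up 3 libraries, replicates 1, 2 and 3. Both groups share the same genotype, were grown in RPMI with serum (bovine growth serum by the labels, fetal bovine serum by the methods) and were labelled as collected at 24 h. The labels do not say whether the replicates were separate cultures, so they may be technical, and the series' single-cell samples of leukocytes were not analysed here.

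Estimated reads per library were 31036317 and 26432466 in the untreated libraries and 24469945, 21185956 and 27243557 in the irradiated libraries. Reads of this kind are counted without molecular identifiers, so a floor of 3 reads covers counting error only. Averaged over its reads, the length of the transcript a read came from was 5463 and 4729 bases in the untreated libraries and 3715, 3625 and 3998 bases in the irradiated libraries. All 3 irradiated libraries therefore lay below both untreated libraries in this measure. Tested genes were divided into 10 deciles by transcript length. After radiation the log2 fold change had a median of 0.77 in the first decile (81 to 1020 bases) and of -0.78 in the last (5266 to 123179 bases). This difference in transcript length moves with the groups, and its part in the results below was not tested. Fold changes of the members are given beside the value obtained with a length offset, in which a spline of each library's counts on transcript length is taken out, and under that offset the same 2 medians were 0.20 and -0.04.

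The label of the line was compared with marker genes. All 7 neuroendocrine SCLC markers were tested, and their summed level was 2582 and 2723 TPM (transcripts scaled by length to a sum of 1000000 in each library) in the untreated libraries and 2659, 2718 and 2526 TPM in the irradiated libraries. Chga, which encodes a protein of secretory granules, stood at 437, 396, 278, 391 and 475 TPM in untreated replicates 2 and 3 and irradiated replicates 1, 2 and 3, the order used for all values below. Of the 7 genes 3 rose in edgeR from counts (Syp, Uchl1 and Calca) and 1 fell (Ncam1), where 12.7% and 13% of all tested genes did (adjusted p under 0.05). In TPM Syp and Calca overlapped between the groups, and limma from TPM called 0 higher (1 at an unadjusted p under 0.05) and 1 lower. With the length offset 0 passed in edgeR in either direction (2 higher and 1 lower at an unadjusted p under 0.05), and DESeq2 without the offset called 3 and 1. Of the 4 leukocyte markers, Csf1r and Adgre1 did not exceed the floor of 3 reads in any library. Ptprc had 24, 9, 1, 8 and 5 reads, so the defining markers of leukocytes were at or near 0. The leukocyte list summed to 4.55, 6.78, 1.62, 1.18 and 1.44 TPM, with Cd68 the most abundant. The 3 fibroblast markers summed to 67.3, 56.8, 36.7, 51.8 and 47.0 TPM and were mostly Pdgfra, whereas Col1a2 had at most 4 reads in any library. Col1a1 stood at 13.5 TPM from 33 reads in untreated replicate 2 and at no more than 0.104 TPM in the others. The endothelial list of 2 genes summed to 1.22, 0.943, 0.261, 0.420 and 0.304 TPM, with Pecam1 the most abundant and Cdh5 under the floor throughout. In TPM the leukocyte, fibroblast and endothelial sums were thus lower in all 3 irradiated libraries. In CPM Pdgfra (by a small margin) and Pecam1 were also lower in all 3 irradiated libraries, whereas Cd68 and Col1a1 overlapped between the groups. Of the 4 genes of these lists with enough reads for the test (Cd68, Col1a1, Pdgfra and Pecam1), 0 passed it in edgeR, 0 had an unadjusted p under 0.05 and 0 passed in DESeq2, while limma from TPM called Cd68 and Pecam1 lower. The part of these sums in the results was not tested. In bulk libraries, fewer cells of a type and less RNA per cell cannot be told apart.

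RNA of p53 itself was detected. Trp53 stood at 4.01, 8.0, 8.67, 8.20 and 5.67 TPM, from 97, 179, 227, 197 and 155 reads. The groups overlapped, and the log2 fold change was 0.64 (standard error, SE, 0.38, adjusted p = 0.230; the quasi-likelihood test of edgeR was used, with p adjusted after Benjamini and Hochberg across the 14106 genes, like every adjusted p below unless another tool is named). The value was 0.25 without untreated replicate 2, 1.23 without untreated replicate 3 and 0.42 with the length offset, and no left-out library brought it past the test. Levels are summed from transcript models and do not show which allele the reads came from. The model that carried the reads differed between libraries: Trp53-202 held all of the gene's TPM in untreated replicate 2 and 18.2% in untreated replicate 3, and Trp53-206 held the larger share in the other 4 libraries. Of the other family members, Trp63 did not exceed 3 reads in any library. Trp73 stood at 23.9, 22.2, 8.62, 12.8 and 16.1 TPM, with all irradiated libraries below both untreated libraries on this scale but overlapping them in CPM (counts per 1000000 reads after scaling between libraries). Its log2 fold change was -0.17 (adjusted p = 0.629), and 0.16 with the length offset. Rb1, the other tumour suppressor by which the line is defined, stood at 58.1, 65.8, 34.4, 32.2 and 42.1 TPM. Its log2 fold change was -0.47 (adjusted p = 0.0455) and -0.06 with the length offset (adjusted p = 0.786, in a range of 0.0114 to 0.975 over its alternatives). The Rb1 call was lost whichever library was left out, with log2 fold changes of -0.46 without untreated replicate 2, -0.45 without untreated replicate 3, and -0.42, -0.45 and -0.55 without irradiated replicates 1, 2 and 3.

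Among the 10 targets, Phlda3 and Trp53inp1 rose after radiation, Zmat3 fell (a direction that turned with the length offset), and the other 7 did not pass the test (adjusted p under 0.05). Over all tested genes the percentage past the same test was 12.7 for higher and 13 for lower, so 2 and 1 of 10 are counts near the background and are no result about the group. The median log2 fold change of the 10 was 0.50, against 0.02 for all genes tested, and 8 of the 10 values were above 0 (9 with the length offset, 7 from TPM). Of all 14106 genes tested, 7200 were above 0 (7555 with the length offset, 4819 from TPM). In 6 of the 10 genes all irradiated libraries lay above both untreated libraries in CPM, and in 1 gene all lay below, against 30.1% and 29.3% of all genes tested. By edgeR 0 members passed the test together with the study's fold limit (log2 fold change beyond 1.5 in either direction), which 1.63% of all genes passed upward and 1.90% downward. At an unadjusted p under 0.05 that count was 1, where 2.57% of all genes passed upward, and by DESeq2 with adjustment it was also 1, where 2.04% did, Gdf15 in both cases. Relative to the mean of the untreated libraries, the median log2 ratio of the 10 genes was 0.33, 0.69 and 0.52 in irradiated replicates 1, 2 and 3.

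The counts depended on the scale and on single libraries. With the length offset 1 member passed upward, Trp53inp1, and 0 passed downward in edgeR, against 4.25% and 3.64% of all genes, and at an unadjusted p under 0.05 the offset gave 5 and 0 (17.1% and 13.7% of all genes), while DESeq2 without it gave 4 and 1 (17.1% and 16.2% of all genes). The median of the members with the offset was 0.68, against 0.04 for all genes. On TPM, with limma on log2(TPM + 1), the median over all genes was -0.24 and the calls were 693 higher and 2678 lower, against 1786 higher and 1827 lower in edgeR from counts. Scale and tool both differ between these fits, and their parts were not separated. On that scale the median of the members was 0.10, which lies above the median of all genes, and Zmat3 was the 1 member past the test. Without untreated replicate 2, which leaves 1 untreated library assumed to vary like the irradiated ones, 0 members passed edgeR's test in either direction (2 higher and 1 lower at an unadjusted p under 0.05), and the median was 0.36. All genes then had 95 higher and 175 lower calls of 14618 tested. Without irradiated replicate 1 the members had 1 higher and 0 lower, against 832 and 909 of 13981 genes. Without irradiated replicate 2 they also had 1 and 0, against 684 and 834 of 13943, and without untreated replicate 3 they had 2 and 0, against 2232 and 1977 of 14772.

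Levels can be compared between genes on the TPM scale. In untreated cells the most abundant members were Ei24, at a mean of 92.0 ± 6.92 TPM (SD, n = 2), and Ccng1, at 80.4 ± 13.7 TPM, whose ranges overlapped. Aen followed at 43.0 ± 6.04 TPM, apart from the genes above and below it. Eda2r at 22.4 ± 5.88, Zmat3 at 20.2 ± 2.27 and Trp53inp1 at 20.2 ± 3.05 TPM did not differ beyond their spread. Sesn1 at 15.9 ± 2.83 TPM lay just under them, with a highest value of 17.9 TPM against a lowest of 18.0 TPM for Trp53inp1. Phlda3 stood at 7.71 ± 4.96 TPM. Plk2 at 0.992 ± 0.258 and Gdf15 at 0.929 ± 0.411 TPM were the least abundant, and their ranges overlapped. By their means, the ranks of the 4 most abundant genes were the same in irradiated cells, where Zmat3 stood at rank 8, below Trp53inp1, Sesn1 and Phlda3. Irradiated ranges overlapped between Ccng1 and Aen, between Eda2r, Trp53inp1 and Sesn1, and between Zmat3 and Phlda3. The summed level of all 10 was 304, 303, 247, 275 and 317 TPM, so the groups overlapped in the sum.

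**Figure D1:**
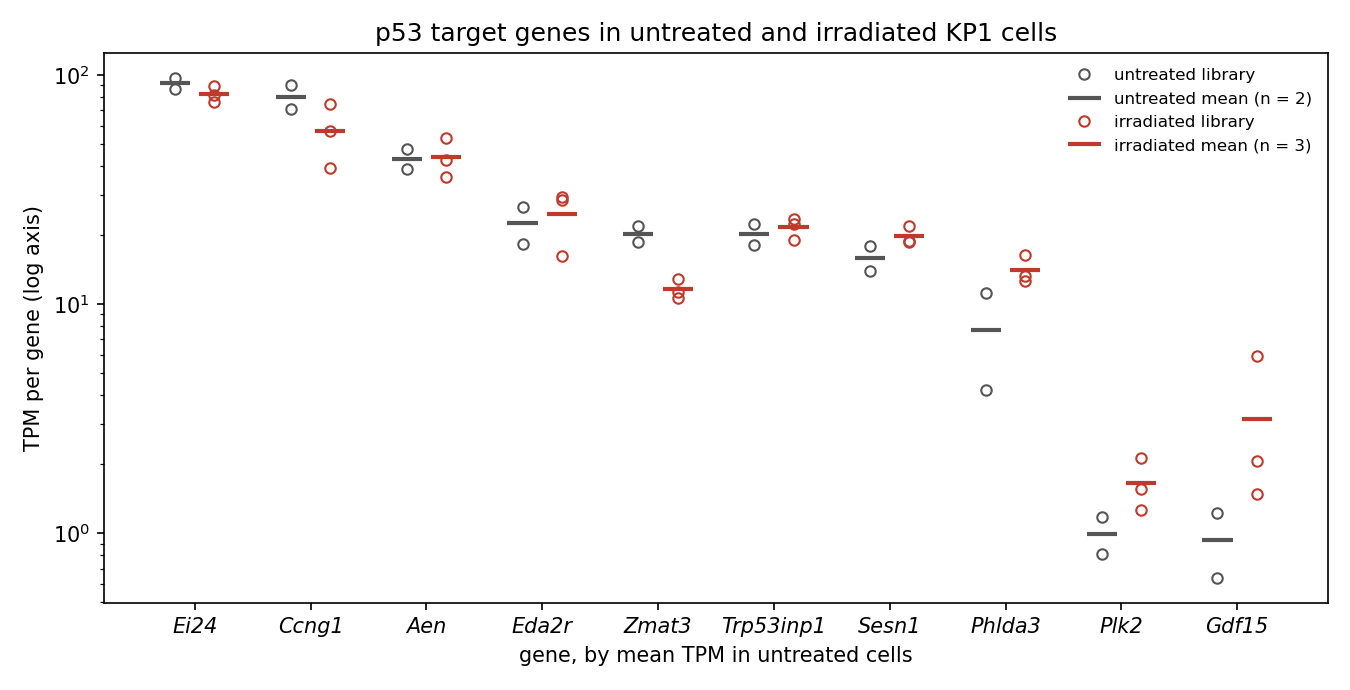
Level of each of the 10 p53 target genes in each library, in TPM on a log axis, with 1 point per library and a bar for the mean of the 2 untreated and of the 3 irradiated libraries. Irradiated libraries lie above both untreated libraries for Phlda3, Sesn1, Plk2 and Gdf15 and below them for Zmat3, and they overlap for the other 5 genes.

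Ccng1 and Plk2 act on the cell cycle. Ccng1 encodes cyclin G, which recruits protein phosphatase 2A to Mdm2 and so takes part in the control of p53. It lies at chr11:40748552-40755311 on the minus strand (mm10, GENCODE M21, as for every gene position below) and stood at 90.0, 70.7, 39.4, 56.8 and 74.5 TPM. Irradiated replicate 1 was the lowest and irradiated replicate 3 lay between the untreated libraries, so the groups overlapped, and so they did in CPM (159.7, 122, 84.0, 128 and 151). The log2 fold change was -0.22 (SE 0.25, 95% confidence interval -0.78 to 0.35, adjusted p = 0.542). It was 0.00 with the length offset, 0.09 with an offset for GC content and 0.01 without untreated replicate 2, so the direction was not the same on every scale. Plk2 encodes a polo-like kinase active in the early part of the cell cycle, at chr13:110395046-110400844 on the plus strand. It had 32, 42, 89, 48 and 68 reads, or 0.810, 1.17, 2.13, 1.26 and 1.56 TPM. All irradiated libraries lay above both untreated libraries, irradiated replicate 2 by a small margin. At this depth the log2 fold change of 1.02 (SE 0.47, interval -0.05 to 2.09) did not pass the test (adjusted p = 0.137), and its alternatives gave an adjusted p between 0.106 and 0.446, with 1.06 under the length offset.

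Eda2r, Phlda3, Aen and Ei24 act in apoptosis or in survival signalling. Eda2r encodes a receptor of the tumour necrosis factor receptor family that binds the A2 form of ectodysplasin, and it lies on the X chromosome at chrX:97333840-97377216 on the minus strand. Its values were 18.3, 26.6, 16.2, 28.4 and 29.4 TPM. Irradiated replicate 1 was the lowest of all libraries and irradiated replicates 2 and 3 the highest, so the groups overlapped. Its log2 fold change was 0.43 (SE 0.28, interval -0.21 to 1.07, adjusted p = 0.283), and 0.69 with the length offset, within an adjusted p of 0.00553 to 0.815 over all alternatives. Leaving out 1 library moved it from 0.19 without untreated replicate 2 to 0.75 without untreated replicate 3, with 0.66, 0.28 and 0.32 without irradiated replicates 1, 2 and 3. Genes of similar length (those of its length decile, as throughout) had a median of -0.25.

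Phlda3 encodes a small protein with a pleckstrin homology domain that competes with the kinase Akt for membrane lipids. It lies at chr1:135766119-135769136 on the plus strand and had 76, 153, 240, 283 and 262 reads. In TPM the values were 4.20, 11.2, 12.6, 16.3 and 13.2, or 7.71 ± 4.96 (SD, n = 2) untreated and 14.0 ± 1.96 (SD, n = 3) irradiated. All irradiated libraries were above both untreated libraries, but untreated replicate 3 lay close to irradiated replicate 1 and far from untreated replicate 2. From these counts the log2 fold change was 1.35 (SE 0.37, interval 0.51 to 2.18, adjusted p = 0.0318). Its transcripts are short, 1398 bases, and genes of similar length had a median of 0.55. Under the offset the value was 0.94 and no longer passed (adjusted p = 0.0872). The call was lost without untreated replicate 2 (0.91, adjusted p = 0.134), without irradiated replicate 1 (1.42, adjusted p = 0.0616) and without irradiated replicate 2 (1.19, adjusted p = 0.0961), and without untreated replicate 3 the value was 2.02 (adjusted p = 0.00837). Over all alternatives the adjusted p of Phlda3 ran from 0.00138 to 0.157, and every value was above 0.

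Aen encodes a nuclease that enhances apoptosis. It lies at chr7:78895854-78911209 on the plus strand and stood at 38.7, 47.3, 35.8, 42.7 and 52.9 TPM. The lowest and the highest value were both from irradiated libraries, and the groups overlapped. A log2 fold change of 0.16 was found (SE 0.17, interval -0.23 to 0.54, adjusted p = 0.518), and 0.14 with the length offset. It was 0.27 without irradiated replicate 1 and 0.07 without irradiated replicate 3. With offsets from Salmon's effective length it was 0.37, and with an offset for GC content 0.02. No alternative passed the test. The adjusted p ran from 0.21 to 0.963 over the planned ones and was 0.105 with crossed replicate numbers as a block. Ei24, also named PIG8, encodes a membrane protein of the endoplasmic reticulum that is needed for autophagy. It lies at chr9:36779159-36797393 on the minus strand. It stood at 96.9, 87.1, 81.9, 76.0 and 89.0 TPM, where the groups overlapped, and at 99.2, 88.1, 104, 101 and 108 CPM, where all irradiated libraries were above both untreated libraries. The log2 fold change was 0.15 (SE 0.14, interval -0.17 to 0.48, adjusted p = 0.445) from counts and 0.02 with the length offset (adjusted p = 0.931). From TPM it was -0.16, where all genes had a median of -0.24, so its direction turned with the scale. From counts it was 0.26 without untreated replicate 2 and 0.09 without untreated replicate 3.

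Zmat3 encodes a zinc finger protein that binds RNA and takes part in splicing and RNA stability. It lies at chr3:32334792-32366014 on the minus strand and had 2122, 2270, 1367, 1083 and 1598 reads. In TPM the values were 18.6, 21.8, 11.3, 10.6 and 12.9, or 20.2 ± 2.27 (SD, n = 2) untreated and 11.6 ± 1.22 (SD, n = 3) irradiated. All irradiated libraries were below both untreated libraries in TPM and in CPM. Its log2 fold change was -0.56 (SE 0.15, interval -0.90 to -0.22, adjusted p = 0.0294), and with the length offset it turned to 0.24 (adjusted p = 0.368). At 7473 bases Zmat3 has the longest transcripts of the 10 genes, and genes of its length decile had a median of -0.78, which is lower than the value of Zmat3. The call was lost without untreated replicate 2 (-0.64, adjusted p = 0.0836), untreated replicate 3 (-0.44, adjusted p = 0.108), irradiated replicate 1 (-0.57, adjusted p = 0.0728) or irradiated replicate 2 (-0.50, adjusted p = 0.103). Over all alternatives its adjusted p ran from 0.00513 to 0.587.

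Sesn1 and Trp53inp1 act in the stress response. Sesn1 encodes a sestrin, a family that restrains the kinase complex mTORC1. It lies at chr10:41809935-41908424 on the plus strand, had 620, 697, 852, 921 and 849 reads and stood at 13.9, 17.9, 18.9, 21.9 and 18.7 TPM. All irradiated libraries were above both untreated libraries on either scale, although irradiated replicate 3 and untreated replicate 3 differed by less than 1 TPM. The log2 fold change was 0.57 (SE 0.19, interval 0.13 to 1.02) and did not pass the test (adjusted p = 0.0609), nor did the value of 0.67 with the length offset (adjusted p = 0.0613). It passed with DESeq2 (0.56, adjusted p = 0.0348), with upper-quartile scaling (0.63, adjusted p = 0.0490), without a filter on low counts (0.62, adjusted p = 0.0271) and with the GC offset (0.66, adjusted p = 0.0390). Over all alternatives the adjusted p of Sesn1 ran from 0.0067 to 0.318 and every value was above 0.

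Trp53inp1 encodes a nuclear and autophagy-related protein that promotes the phosphorylation of p53. It lies at chr4:11156431-11174379 on the plus strand and had 1069, 1200, 1897, 1475 and 2070 reads. In CPM the values were 37.4, 45.0, 75.5, 67.4 and 75.4, and all irradiated libraries stood clear of both untreated libraries. Its log2 fold change was 0.82 (SE 0.16, interval 0.46 to 1.18), with the smallest adjusted p of the 10 genes, 0.0117. Genes of similar length (its transcripts have 4879 bases) had a median of -0.40, and under the offset the value was 1.31 (adjusted p = 0.0187). In TPM the groups overlapped, at 22.3, 18.0, 22.3, 19.1 and 23.4, and the fold change from TPM was 0.10 (adjusted p = 0.755, limma), where all genes had a median of -0.24. With offsets from Salmon's effective length it was 0.45 (adjusted p = 0.109). The call was lost without untreated replicate 2 (0.71, adjusted p = 0.0763), the only library whose removal ended it. The adjusted p over all alternatives ran from 7.05e-05 to 0.755.

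The transcript models of Trp53inp1 differed between untreated replicate 2 and the other libraries. Trp53inp1-203, a noncoding model of 587 bases, held 9.60 TPM in untreated replicate 2 and 1.30 TPM in untreated replicate 3, and none in the irradiated libraries. Those 9.60 TPM, 43.0% of the gene's level, came from 45.9 estimated reads. Trp53inp1-202, a noncoding model of 5432 bases, held none in untreated replicate 2. In the other libraries it held 5.77, 6.96, 4.48 and 4.63 TPM, from 423, 595, 352 and 412 estimated reads. The protein-coding model Trp53inp1-201 stood at 12.7, 10.5, 15.3, 14.3 and 18.7 TPM, with all irradiated libraries above both untreated libraries. Its share of the gene was 57.0% and 58.2% in the untreated and 68.6%, 74.5% and 80.2% in the irradiated libraries.

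Gdf15 encodes a secreted cytokine of the transforming growth factor beta family and is a target of the integrated stress response as well as of p53. It lies at chr8:70629393-70632456 on the minus strand and had 11, 19, 107, 35 and 28 reads, or 0.639, 1.22, 5.92, 2.07 and 1.48 TPM. All irradiated libraries were above both untreated libraries, but irradiated replicate 1 stood far above the other 2 irradiated libraries. The log2 fold change was 2.06, the largest of the 10 genes, with a wide interval (SE 0.76, 0.32 to 3.79), and it did not pass the test in edgeR (adjusted p = 0.0775). It passed with DESeq2 (2.06, adjusted p = 0.0284) and without a filter on low counts (2.10, adjusted p = 0.0173), and it was 1.65 with the length offset (adjusted p = 0.171). Without irradiated replicate 1 the value was 1.25 (adjusted p = 0.235), below the 1.42 of Phlda3, so Gdf15 was then not the largest. With replicate number as a block Gdf15 also lay below Phlda3, at 1.26 against 1.49. Over all alternatives the adjusted p ran from 0.0173 to 0.557. Gfral, which encodes its receptor, had 0 reads in 4 libraries and 2 reads in irradiated replicate 3, under the floor.

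**Figure D2:**
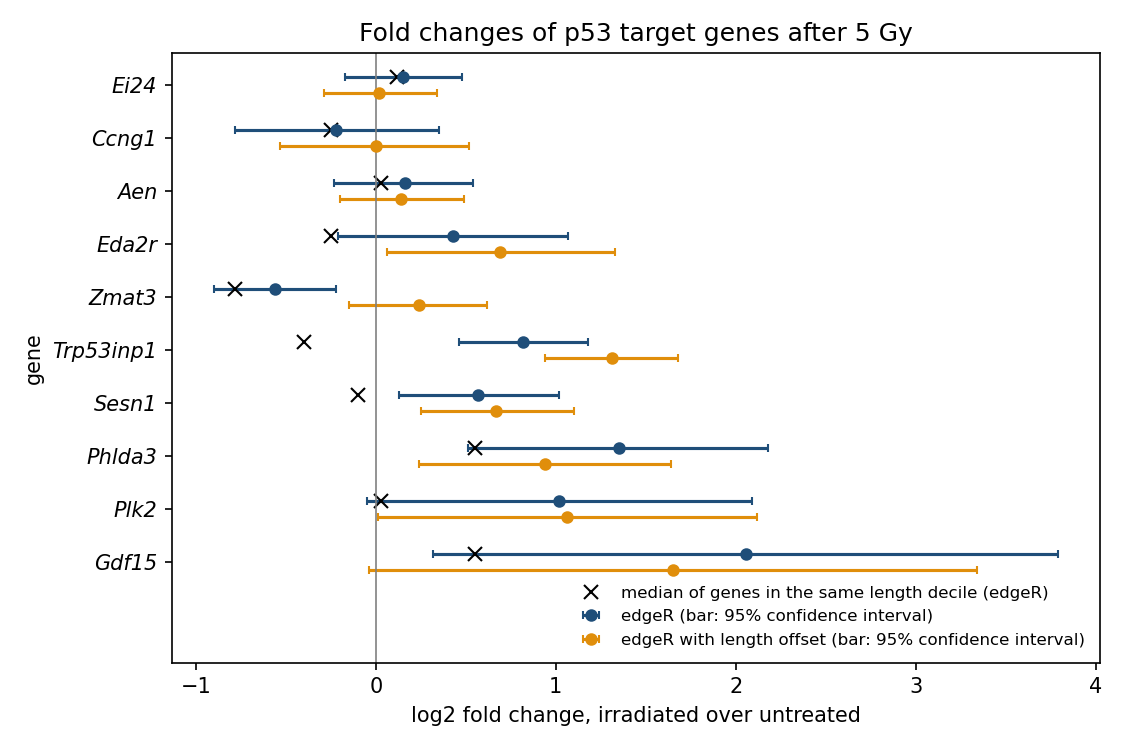
Log2 fold change of each of the 10 genes, irradiated against untreated, with its 95% confidence interval, from the counts and with the length offset, beside the median of genes of similar transcript length. Phlda3 (1.35), Trp53inp1 (0.82) and Zmat3 (-0.56) passed the test from the counts, and with the length offset Zmat3 turned to 0.24 and Trp53inp1 alone passed; from TPM the direction of Ei24 turned to -0.16.

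The other members differed in how their level was divided between transcript models. Ccng1-201 held all of the Ccng1 level in every library, and Zmat3-201 held 93.8% and 95.1% in the untreated and 94.8%, 87.1% and 93.2% in the irradiated libraries. Zmat3-201 therefore showed the same order as the gene, at 17.5, 20.7, 10.7, 9.19 and 12.1 TPM. Phlda3-201 held the whole level except in untreated replicate 3, where a noncoding model of 569 bases held 22.1%. Sesn1 was divided between 2 coding models. Sesn1-201 stood at 7.83, 11.6, 12.7, 13.9 and 13.8 TPM, higher in every irradiated library, whereas Sesn1-202 overlapped between the groups at 6.06, 6.29, 6.21, 8.03 and 4.89 TPM. Aen-203, the longer of its main coding models, stood at 12.0, 9.96, 6.63, 7.85 and 8.23 TPM, lower in every irradiated library, while Aen-201 overlapped at 26.7, 36.7, 26.5, 34.6 and 42.9 TPM. For Eda2r a model with a retained intron held 42.0% and 35.6% in the untreated and 30.1%, 27.0% and 30.8% in the irradiated libraries. Aen-203 is longer than Aen-201 (4956 against 2007 bases), and Sesn1-202 is longer than Sesn1-201 (3809 against 2600 bases). The part of the length difference between the groups in these values was not tested. How many of all transcript models separate the groups in this way was not counted. These shares are estimates from short reads shared between models, and no test was made of them.

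Position and sequence around the members were also examined. The 10 genes lie on 10 different chromosomes. The most abundant transcript of each was searched against the quantified, annotated transcripts of other genes. This found 0 of 10 with a near-identical copy (at least 95% identity over at least 80% of the length, blastn). Ei24 is overlapped on the opposite strand by the antisense gene Gm26787 and Sesn1 on the same strand by an unclassified locus, and both were not analysed here. The strand of the libraries is not stated, so reads of Gm26787 cannot be told apart from reads of Ei24 where they overlap.

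The p53 response element was searched in windows from 250 bases before to 50 bases after each annotated start (RefSeq, build GRCm38.p6), on both strands, as a pair of p53 half-sites with a spacer of 0 to 13 bases. Windows were found for 8 of the 10 members, all except Zmat3 and Trp53inp1, and for 27025 genes in all. No window of these 8 members held the full element, which 0.0740% of all genes did. Mismatches were allowed only outside the core C and G of each half-site. With 1 mismatch allowed the element was found for Ccng1 alone (0.718% of all genes), and with up to 2 mismatches for Ccng1 and Sesn1 (4.71% of all genes). An exact half-site of 10 bases was found for 4 of the 8, Aen, Ccng1, Ei24 and Sesn1, against 9.55% of all genes. None of these 4 passed the test after radiation, where 12.7% of all tested genes passed upward and 13% downward. With so few genes this is no result about promoters with a half-site. Sesn1 passed under some alternatives, as given above. The stretches are shown because they hold the part of the p53 motif that these promoters carry, in capitals, each read 5′ to 3′ on the strand of its gene. They lie at chr7:78895917-78895966 (plus strand) for Aen, chr11:40755442-40755491 (minus strand) for Ccng1, chr9:36797315-36797364 (minus strand) for Ei24 and chr10:41887246-41887295 (plus strand) for Sesn1.
Aen: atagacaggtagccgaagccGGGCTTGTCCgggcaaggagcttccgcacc
Ccng1: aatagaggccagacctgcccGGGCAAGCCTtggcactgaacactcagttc
Ei24: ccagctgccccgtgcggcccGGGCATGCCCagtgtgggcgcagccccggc
Sesn1: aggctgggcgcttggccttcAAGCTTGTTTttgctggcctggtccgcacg
In Ccng1 the bases just before the capitals form a further decamer that differs from the motif at 1 base, with no spacer between them. A match is a description of letters and not a site, and windows of this length leave out most intronic sequence, where many p53 response elements lie.

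The other p53 targets were taken from a list of 45 genes. Fas had 0 reads in all 5 libraries, and the other 44 were tested. Of these, 11 rose, 1 fell and 32 did not pass the test, beside the background of 12.7% and 13%. The median log2 fold change was 0.35, against 0.02 for all genes and 0.50 for the 10 members. Of the 44 values 33 were above 0, against 7200 of 14106 for all genes. In 22 of 44 genes all irradiated libraries lay above both untreated libraries in CPM, and in 5 all lay below, against 30.1% and 29.3% of all genes tested. The genes that rose had short transcripts, with a median of 1160 bases, against 2323 bases for the 44 and 1325 bases for all genes that rose. Under the length offset 7 passed upward and 0 downward in edgeR, against 4.25% and 3.64% of all genes (17 and 1 at an unadjusted p under 0.05, against 17.1% and 13.7%), and 5 of those 7 were among the 11. The counts of DESeq2, without the offset, were 13 and 2, against 17.1% and 16.2%. From TPM 5 passed upward and 2 downward in limma, against 4.91% and 19% of all genes, and the median was 0.03 where that of all genes was -0.24. Without untreated replicate 2, which leaves 1 untreated library, most calls over all genes were lost. The loss of calls among the 44 in that fit is therefore no result about them. Without irradiated replicate 2 the counts were 6 and 0, against 684 and 834 of 13943 genes. Without irradiated replicate 1 they were 8 and 0, against 832 and 909 of 13981. Without irradiated replicate 3 they were 10 and 0, against 1557 and 1460 of 13864.

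The 11 targets that rose are named here with what each is known to do. The kinase inhibitor Cdkn1a had a log2 fold change of 1.12 (adjusted p = 0.0192), the antiproliferative gene Btg2 0.88 (adjusted p = 0.0399) and the stress sensor Gadd45a 1.61 (adjusted p = 0.0200). The BCL2-family members Bax and Bbc3 had 1.18 (adjusted p = 0.0184) and 1.40 (adjusted p = 0.00954), Ninj1, which acts in plasma membrane rupture, had 1.30 (adjusted p = 0.0129), and Triap1, an inhibitor of apoptosis, had 1.45 (adjusted p = 0.0344). Ddit4, an inhibitor of mTORC1 signalling, had 1.37 (adjusted p = 0.00999). The reductase Dcxr had 2.20 (adjusted p = 0.0205), the ribosomal protein gene Rps27l 0.89 (adjusted p = 0.0332) and the membrane protein gene Tm7sf3 0.67 (adjusted p = 0.0265). Gadd45a and Dcxr also passed the study's fold limit, which 1.63% of all genes passed upward. Gadd45a lay under that limit without irradiated replicate 1 (1.2) and with replicate number as a block (1.22). With the length offset, and in limma from TPM, 0 of the 44 passed it. Under the length offset Cdkn1a, Bbc3, Ddit4, Ninj1 and Tm7sf3 still passed, at 0.92, 0.92, 1.09, 0.79 and 0.82. Btg2 (0.91), Gadd45a (1.11), Bax (0.58), Dcxr (1.61), Rps27l (0.36) and Triap1 (0.95) did not pass under it. Without untreated replicate 2 the calls of these genes were lost, along with most calls over all genes. The log2 fold change was then 0.79 for Cdkn1a, 0.70 for Btg2, 1.31 for Gadd45a, 1.03 for Bax and 1.15 for Bbc3. It was 1.20 for Ddit4, 2.27 for Dcxr, 0.81 for Rps27l, 0.92 for Triap1, 0.98 for Ninj1 and 0.55 for Tm7sf3. Without irradiated replicate 1 the calls of Cdkn1a (1.00), Rps27l (0.94), Triap1 (1.41) and Tm7sf3 (0.70) were lost. Without irradiated replicate 2 those of Btg2 (0.70), Dcxr (2.09), Rps27l (0.64), Triap1 (1.30) and Tm7sf3 (0.62) were lost, and without irradiated replicate 3 that of Btg2 (0.84).

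Apaf1, the core of the apoptosome, was the 1 listed target that fell, from 22.0 and 12.1 TPM to 6.99, 7.43 and 9.15 TPM (log2 fold change -0.66, adjusted p = 0.0494). All irradiated libraries were below both untreated libraries, and untreated replicate 2 stood far above untreated replicate 3. Apaf1 has long transcripts (5985 bases), and with the length offset its direction turned, to 0.02 (adjusted p = 0.957). The call was lost without untreated replicate 2 (-0.29), irradiated replicate 1 (-0.59), irradiated replicate 2 (-0.65) or irradiated replicate 3 (-0.74), and its adjusted p over all alternatives ran from 0.0125 to 0.957. The feedback regulators of p53 did not pass the test. Mdm2 stood at 67.0, 90.5, 81.4, 83.0 and 72.4 CPM, with overlapping groups and a log2 fold change of 0.00 (adjusted p = 0.991). At 66.2, 105, 61.5, 59.9 and 58.9 TPM all irradiated libraries lay below both untreated libraries, and from TPM the log2 fold change was -0.47, below the median of -0.24 for all genes on that scale. The phosphatase gene Ppm1d had a log2 fold change of 0.31 (adjusted p = 0.282) from counts and -0.03 from TPM. With 1 library left out, Ppm1d had values from 0.12 (without irradiated replicate 1) to 0.47 (without untreated replicate 3). Ddb2, which recognises ultraviolet damage, had 0.72 (adjusted p = 0.347), and it had 1.86 without untreated replicate 3, where it passed (adjusted p = 0.0356), 0.11 without untreated replicate 2 (adjusted p = 0.9) and 0.47 without irradiated replicate 2, in a range of 0.0356 to 0.9 over its alternatives.

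Paralogs and binding partners of the members formed a list of 16 genes, of which 13 were tested. Phlda2 had 0 reads in every library, and Edar and Gfral had too few reads for the test. Of the 13, 3 rose and 1 fell, with a median log2 fold change of 0.19, against 12.7% higher, 13% lower and a median of 0.02 over all genes tested, so these counts lie near the background. The median was 0.39 with the length offset and -0.07 from TPM, where all genes had 0.04 and -0.24. Ccng2, the paralog of Ccng1, had 38.7, 61.0, 77.1, 90.9 and 77.0 CPM and rose (0.71, adjusted p = 0.0413). In TPM the groups overlapped for Ccng2, with a value of 0.23 (adjusted p = 0.38, limma), where all genes had a median of -0.24. The zinc finger genes Zmat2 (0.87, adjusted p = 0.0141) and Zmat5 (1.32, adjusted p = 0.0285) rose while Zmat3 fell. Under the length offset Zmat3 turned to 0.24. Zmat1 had -0.81 and did not pass (adjusted p = 0.056), with all irradiated libraries below both untreated libraries in TPM and in CPM, and -0.68 under the length offset. With that offset Zmat2 was the 1 gene of the list that passed, at 0.77. Sesn3 was the most abundant sestrin, at 237, 103, 90.1, 78.3 and 120.4 TPM, and it fell (-0.97, adjusted p = 0.0267), whereas Sesn1 was above 0 and Sesn2 had -0.32 (adjusted p = 0.302). With 1 library left out, Sesn2 had values from -0.54 (without irradiated replicate 1) to -0.2 (without irradiated replicate 2). Under the length offset Sesn2 had -0.1. Untreated replicate 2 stood far above all other libraries for Sesn3, and in TPM untreated replicate 3 lay within the irradiated range. Under the length offset Sesn3 had -0.22 and did not pass. Without untreated replicate 2 the calls of the listed genes were lost, along with most calls over all genes. The values were then 0.44 for Ccng2, 0.70 for Zmat2, 0.97 for Zmat5 and -0.50 for Sesn3. Zmat2 was the only one of them that passed without irradiated replicate 1 and without irradiated replicate 2, where Ccng2 had 0.75 and 0.63, Zmat5 1.27 and 1.17, and Sesn3 -0.88 and -0.91. Ccng2 was also lost without irradiated replicate 3 (0.76). Eda, the ligand of Eda2r, had 193, 124, 303, 165 and 186 reads, and in CPM irradiated replicate 3 exceeded untreated replicate 2 by little. Its log2 fold change was 0.62 (adjusted p = 0.200), and 1.07 with the length offset (adjusted p = 0.0842). In TPM the groups overlapped for Eda, at 2.65, 1.87, 5.36, 2.33 and 2.30.

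Genes of the integrated stress response, a pathway that acts through the transcription factor Atf4 and also reaches Gdf15, formed a list of 8, all tested. Of these 2 rose and 1 fell, and the median log2 fold change was 0.57, against 12.7% higher, 13% lower and a median of 0.02 over all genes tested, so these counts lie near the background. The median was 0.18 with the length offset and 0.17 from TPM, where all genes had 0.04 and -0.24. Atf4 itself stood at 126, 212, 265, 238 and 169.9 TPM with overlapping groups and did not pass (0.69, adjusted p = 0.0890). It passed with DESeq2 (0.68, adjusted p = 0.0405), without a filter on low counts (0.74, adjusted p = 0.0044) and without irradiated replicate 3 (0.89, adjusted p = 0.0388). The value was 0.41 without untreated replicate 2, 1.11 without untreated replicate 3, and 0.57 and 0.61 without irradiated replicates 1 and 2. Atf4 had 0.41 with the length offset. Its adjusted p lay within a range of 0.00235 to 0.602 over its alternatives. The transcription factor gene Ddit3 rose (0.83, adjusted p = 0.0449), as did the pseudokinase gene Trib3 (0.77, adjusted p = 0.0321). Under the length offset Ddit3 had 0.25 and Trib3 0.56. In TPM Trib3 overlapped between the groups, with a value of 0.2 (adjusted p = 0.485, limma). Slc7a11, the cystine transporter gene, fell from 11.7 and 7.54 TPM to 3.91, 1.59 and 2.11 TPM (-1.66, adjusted p = 0.00947). Its transcripts are long, 7986 bases, and under the length offset it had -0.78 and did not pass. With that offset 0 of the 8 passed in edgeR in either direction (2 higher and 1 lower at an unadjusted p under 0.05, against 17.1% and 13.7% of all genes), and DESeq2 without the offset called 4 and 1 (17.1% and 16.2% of all genes). The edgeR calls from counts were lost without untreated replicate 2, along with most calls over all genes. The values were then 0.65 for Ddit3, 0.61 for Trib3 and -1.42 for Slc7a11. Ddit3 was also lost without irradiated replicate 1 (0.83) and 2 (0.66), and Trib3 without irradiated replicate 1 (0.62) and 2 (0.81).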

How the data were processed

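RNA of 5 KP1 libraries was sequenced in bulk. Per the labels and methods, the authors quantified reads per transcript with Salmon 0.8.2 against mouse mm10, without stating the annotation release, and tested them with DESeq2 1.22.2. The deposited estimated counts are Salmon's reads per transcript, and the deposited TPM values are scaled per effective length within each library. The deposited files also hold transcript lengths in bases. Of 113116 transcripts, 112762 (99.69%) were matched to GENCODE M21 and summed over genes.

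Rounded counts were fitted with edgeR 4.0.16 in R 4.3.3 (filterByExpr, TMM, quasi-likelihood test, Benjamini-Hochberg over 14106 genes), with irradiated against untreated libraries and no covariate. An adjusted p under 0.05 was the threshold, beside the study's fold limit. The tests were tried first on simulated data. DESeq2 1.42.0, limma 3.58.1 on log2(TPM + 1), other scalings, filters and offsets, a replicate block and each left-out library were alternatives. An exact two-sided permutation test of 2 libraries against 3 cannot give a p under 0.1, so none was used. Python 3.11.15 and blastn 2.17.0 served for tables and sequence search.

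The members and lists were chosen with earlier results of these data known. Genes named are all members, all listed genes past the test, a few fixed regulators, Trp53, Trp63, Trp73, Rb1 and the markers; other listed genes named (Eda, Edar, Fas, Gfral, Phlda2, Zmat1) were chosen after their values were seen.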

Additional observations from a re-analysis of the deposited data

How the results depend on the processing

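The counts of higher and lower calls among the members (2 and 1), the other p53 targets (11 and 1), the paralogs and partners (3 and 1) and the integrated stress response genes (2 and 1) were within 1.5 times the reported ones with RLE size factors and with protein-coding genes alone. With DESeq2 the members had 4 higher, the other targets 2 lower, the paralogs 2 lower and the stress response genes 4 higher. With upper-quartile factors the other targets had 0 lower in edgeR (2 at an unadjusted p under 0.05, and 2 by DESeq2). Without a filter the members and the stress response genes each had 4 higher. With the stricter filter, under which Gdf15 could not be tested, the other targets and the paralogs each had 2 lower. All genes had 2413 higher and 2292 lower calls of 14106 with DESeq2, and 2071 and 1559 of 14106 with upper-quartile factors. They had 2520 and 1979 of 20526 without a filter, and 1710 and 1944 of 11893 with the stricter filter.

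With effective length offsets the edgeR counts of the members were 0 and 0 (4 and 1 at an unadjusted p under 0.05, and 4 and 1 by DESeq2 without the offsets), the paralogs had 0 lower and the stress response genes 1 higher. All genes then had 1476 higher and 1407 lower calls of 14106. With the length offset the members had 1 and 0, the other targets 7 and 0, the paralogs 1 and 0, and the stress response genes 0 and 0. All genes then had 600 higher and 514 lower calls in place of 1786 and 1827. With the GC offset the members had 0 lower, the other targets 2 lower and the stress response genes 0 higher, and the median of the members was 0.69. Under the GC offset all genes had 1693 higher and 1684 lower calls of 14106. From log2(TPM + 1) in limma the members had 0 higher, the other targets 5 and 2, the paralogs 1 higher and the stress response genes 0 higher, and the median of the members was 0.10. From log2(TPM + 0.1) the members had 0 higher, the other targets 7 and 2, the paralogs 1 higher and the stress response genes 0 higher, and the median was 0.11. The median over all genes was then -0.24 and -0.30, with 693 higher and 2678 lower calls and 721 higher and 2641 lower calls, while it was 0.07 with upper-quartile factors and without a filter.

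The replicate numbers 2 and 3 occur in both groups. The difference between replicates 2 and 3 (log2, 14106 genes) had a correlation of -0.196 between the groups. This gave no sign that equal numbers pair the libraries, but a single correlation cannot exclude that they do. With the replicate block the members had 1 and 0 (3 and 0 at an unadjusted p under 0.05), the other targets 8 and 0, the paralogs 0 and 0, the stress response genes 0 higher, and all genes 602 and 494. With the replicate block and the length offset all 4 lists had 0 and 0 in edgeR (at an unadjusted p under 0.05, 4 and 0, 14 and 1, 3 and 0, and 1 and 1), the median of the members was 0.75, and all genes had 12 and 19. With crossed numbers as the block, chosen after seeing the data, the members had 4 higher, the other targets 17 and 3, the paralogs 3 lower, the stress response genes 4 higher, and all genes 3026 and 2670.

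With each library left out in turn, the members had 0 to 2 higher and 0 to 1 lower, with a median of 0.36 to 0.74. The other targets had 0 to 14 higher and 0 to 2 lower, the paralogs 0 to 4 and 0 to 2, and the stress response genes 0 to 4 and 0 to 1. All genes had 95 higher and 175 lower calls without untreated replicate 2, 832 and 909 without irradiated replicate 1 and 684 and 834 without irradiated replicate 2. A lone untreated library was assumed to vary like the irradiated ones.

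Leaving the markers aside, the direction of 7 named genes turned under at least 1 alternative. Zmat3 had 0.24 with the length offset and 0.24 with the replicate block and length offset. Ccng1 had 0.09 with the GC offset, 0.20 with the block and length offset and, with 1 library left out, values from -0.41 to 0.01 (without untreated replicate 2). Ei24 had -0.16 and Ppm1d -0.03 with either TPM setting. Apaf1 had 0.02 with the length offset and 0.09 with the block and length offset. Trp73 had 0.16 with the length offset, 0.04 with the block, 0.35 with the block and length offset, 0.04 with crossed numbers and, with 1 library left out, values from -0.31 to 0.04 (without irradiated replicate 1). Mdm2, at 0.00, had -0.01 with DESeq2, RLE factors, the block and crossed numbers, 0.00 to 2 decimals with protein-coding genes alone, -0.03 with the stricter filter, -0.16 with effective length offsets, -0.13 with the length offset, -0.15 with the block and length offset, -0.47 with either TPM setting, -0.02 without irradiated replicate 1, -0.03 without irradiated replicate 2 and, over all left-out libraries, values from -0.18 (without untreated replicate 2) to 0.26. The cause of these changes was not tested. The reads of Plk2 and Gdf15, between 11 and 107 per library, limit the precision of both genes.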
